A study of Homo sapiens with 7 samples.

Results

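The loci of 6 genes that mark the fates of the thymus and the parathyroid gland, FOXN1, GCM2, CASR, PTH, AIRE and PSMB11, were followed through 4 stages of a human stem cell differentiation. A peak of open chromatin was assigned to a gene where its summit lay in the gene's span or within 100 kb of either end (hg38), and stages without a peak were kept in the account. By this rule 1242 of 2093738 deposited peaks belonged to the 6 genes, 0.0593% of all, and the genes are 6 of 19970 protein-coding genes on the chromosomes used. FOXN1 had 251 of these peaks, GCM2 119, CASR 197, PTH 85, AIRE 251 and PSMB11 339, summed over 7 libraries. The rule used position alone, so the heights of the peaks and their change over the stages were free to vary.

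The thymus and the parathyroid glands both arise from the endoderm of the pharyngeal pouches. FOXN1 is the transcription factor that drives the differentiation of thymic epithelial cells, and in the mouse it directly activates PSMB11, which encodes a proteasome subunit found in the thymic cortex. AIRE acts later, in the medulla of the thymus, where it permits expression of tissue-restricted antigens. GCM2 is the transcription factor required for the parathyroid gland, CASR encodes the calcium-sensing receptor that controls hormone release, and PTH encodes parathyroid hormone itself.

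The cells were H1, an established human embryonic stem cell line, and no allele, agent or day of treatment is given in the labels. Stem cells before differentiation (hESC) and definitive endoderm (hDE) have 2 libraries each, anterior foregut endoderm (hAFE) has 2 and pharyngeal foregut endoderm (hPFE) has 1, and the titles mark the hESC and hDE libraries as re-analysed. No hAFE or hPFE title carries that mark. In every comparison of hAFE or hPFE with hESC or hDE, stage and this mark therefore cannot be told apart. The assay was ATAC-seq, in which the Tn5 transposase cuts open chromatin, so that a peak marks a place with many cuts. All libraries come from bulk cultures of 1 line, in which fewer cells with an open region and less opening per cell cannot be told apart. Nothing in the labels ties the replicates to separate cultures, so the spread between them may be technical.

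Each library had 298508 to 299374 peaks. The height of a peak is given below as its recovered pileup of cuts at the summit over the genome-wide background of the same library, which ran from 2.11 to 7.94 and grows with depth. Heights are also given as a percentage of the median height of the 14587 regions that were open in all 7 libraries (the constitutive median), since that median itself ran from 21.5 times the background at hPFE to 69.3 times in hAFE replicate 1. The lowest deposited height of a library lay between 2.47 and 3.78 times the background, and each list stops near the same number of peaks, so "no peak" means no deposited peak and not a lack of signal. Strict regions are the 50,000 strongest of each library. Strict regions nearest to the 4 hESC marker genes numbered 18 and 22 at hESC, 10 and 5 at hDE, 9 and 8 at hAFE and 6 at hPFE. Within this list the genes differed: NANOG had none in hDE replicate 2, hAFE or hPFE, while POU5F1 had 3 and 4 at hESC, 1 and 0 at hDE, 2 and 2 at hAFE and 3 at hPFE. The 6 marker genes of foregut and pharyngeal endoderm had 19 and 22 at hESC, 32 and 31 at hDE, 23 and 23 at hAFE and 29 at hPFE. Of these 6, TBX1 was at 0 at hESC, hDE and hAFE replicate 2, and HOXA3 at 0 in hAFE replicate 1. At hPFE TBX1 had 2, HOXA3 3, PAX1 8 and PAX9 9, each at or above every other library. The other genes of the list went the other way. EYA1 had 2 at hPFE against 5 to 7 elsewhere, and FOXA2 had 5 against 11 and 8 at hDE. The 5 marker genes of definitive endoderm had 15 and 17 at hESC, 44 and 35 at hDE, 28 and 27 at hAFE and 20 at hPFE. Markers of mesenchyme (9 to 15), neural ectoderm (4 to 13) and blood (3 to 9) had strict regions in every library, and their part in the results below was not tested.

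The starts of the 6 genes were rarely among the strong regions of any stage. A peak with its summit within 1 kb of the start was present at 3 and 4 of the 6 genes at hESC, 3 and 2 at hDE, 3 and 4 at hAFE and 3 at hPFE. Over the 15812 genes with a start in the promoter table, the share with such a peak was 81.8% and 80.5% at hESC, 79.7% and 76.9% at hDE, 80.2% and 80.7% at hAFE and 80.3% at hPFE. A peak within 1 kb of either end was present at 4 and 4 of the 6 genes at hESC, 3 and 3 at hDE, 5 and 4 at hAFE and 5 at hPFE, beside 83.1% and 81.3%, 81.2% and 77.7%, 81.4% and 81.9%, and 81.8% of all genes in the same order. A strict region lay at 1 and 2 of the 6 starts at hESC and at none in the other 5 libraries. Among the 15812 genes that share was 67.6% and 65.2% at hESC, 66.9% and 57.1% at hDE, 65.9% and 67.7% at hAFE and 66.6% at hPFE. No start of the 6 genes was strict at hPFE, the stage nearest to the organs. Of all genes 71.7% had a start peak in all 7 libraries, which of the 6 held for CASR alone, and 9.55% had one in none, which held for PTH alone.

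At the start of FOXN1 there was no peak at hESC, hDE or hAFE replicate 2. The peak there was 4.95 times the background in hAFE replicate 1 and 3.18 times at hPFE. The hPFE summit lay 81 bp upstream of the start, with a deposited fold enrichment over the local background of 1.96 and a −log10 p of 2.77, so it is among the weak peaks of its library. PSMB11 had start peaks of 5.68 and 7.57 at hESC, 4.67 in hAFE replicate 2 and 3.53 at hPFE, and none at hDE or hAFE replicate 1. AIRE had 7.14 in hESC replicate 2, 4.37 in hDE replicate 1 and 6.23 in hAFE replicate 2, so that 1 replicate of each replicated stage had a peak and the other had none.

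The parathyroid genes differed among themselves. The CASR start had a peak in every library, at 16.6 and 20.6 times the background at hESC, 6.12 and 14.2 at hDE, 11.3 and 10.1 at hAFE and 5.48 at hPFE, and it was strict at hESC only. The GCM2 start had 7.58 and 15.1 at hESC, 5.02 and 12.1 at hDE, 7.20 and 6.49 at hAFE and no peak at hPFE. The PTH start had no peak in any of the 7 libraries. As a share of the constitutive median the CASR start stood at 68.6% and 53.1% at hESC, above the 16.2% to 35.1% of the other 5 libraries, without overlap.

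**Figure D1:**
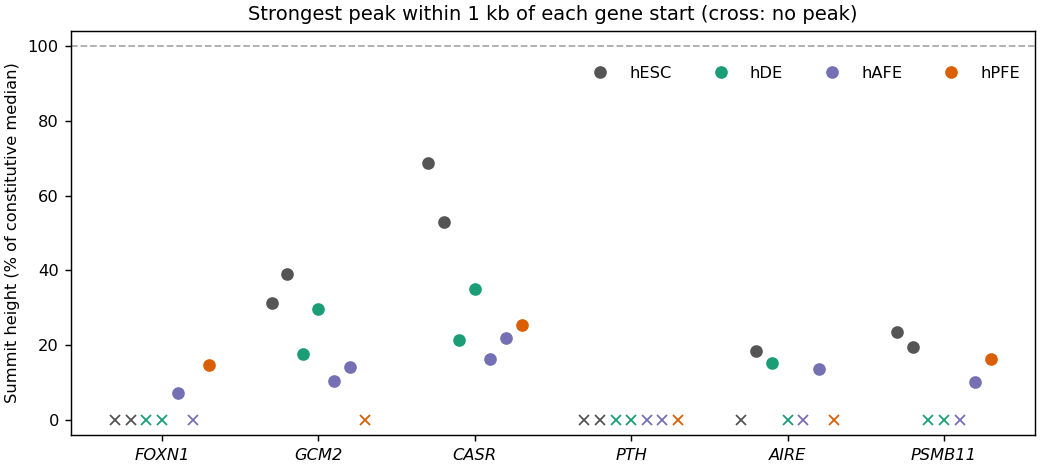
Strongest peak within 1 kb of the start of each gene, as a percentage of the constitutive median height of the same library (vertical axis), with 1 point per library coloured by stage and a cross for no peak. The dashed line marks the constitutive median; every point lies under it, the highest is CASR in hESC replicate 1 at 68.6%, and PTH has crosses only.

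The DNA before the starts shows how unlike the 6 promoters are, and the 4 below were chosen because a start peak, its absence or a motif bears on them. Each is the 250 bases before the start, on the gene's strand, 5′ to 3′, from RefSeq (GRCh38.p14, which is hg38): FOXN1 at chr17:28506098-28506347 (plus strand), GCM2 at chr6:10882042-10882291 (minus strand), PTH at chr11:13496182-13496431 (minus strand) and PSMB11 at chr14:23041962-23042211 (plus strand). Capitals mark matches on either strand to GACGC, the core bound by mouse FOXN1, to AGATAA, a site for factors of the family of GATA3, or to the promoter element TATAAA.
FOXN1: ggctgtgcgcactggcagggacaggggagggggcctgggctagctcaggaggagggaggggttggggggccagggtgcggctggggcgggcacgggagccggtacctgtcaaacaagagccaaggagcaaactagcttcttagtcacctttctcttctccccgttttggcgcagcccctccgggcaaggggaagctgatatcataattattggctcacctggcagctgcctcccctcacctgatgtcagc
GCM2: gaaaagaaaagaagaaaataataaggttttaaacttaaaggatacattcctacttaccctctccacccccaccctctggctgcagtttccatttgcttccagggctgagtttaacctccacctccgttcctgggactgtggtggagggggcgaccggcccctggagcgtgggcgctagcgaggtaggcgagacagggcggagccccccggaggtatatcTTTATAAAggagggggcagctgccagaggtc
PTH: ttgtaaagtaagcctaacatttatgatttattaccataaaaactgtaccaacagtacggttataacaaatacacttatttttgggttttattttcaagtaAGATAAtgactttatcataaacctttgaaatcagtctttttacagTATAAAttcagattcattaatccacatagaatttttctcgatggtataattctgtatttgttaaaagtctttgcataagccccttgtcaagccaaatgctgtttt
PSMB11: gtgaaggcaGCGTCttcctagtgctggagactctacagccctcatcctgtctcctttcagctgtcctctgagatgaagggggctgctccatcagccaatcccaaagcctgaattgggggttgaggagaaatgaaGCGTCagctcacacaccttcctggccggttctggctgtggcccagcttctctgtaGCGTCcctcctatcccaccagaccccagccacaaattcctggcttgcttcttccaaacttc

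The PSMB11 sequence held GACGC 3 times, 241, 116 and 61 bases before the start and each on the minus strand. Of the 15812 promoters of the same length 37.5% held it at least once and 2.97% at least 3 times, and none of the other 5 genes held it. TATAAA occurred in GCM2, as a pair of overlapping matches on both strands that begin 31 and 29 bases before the start, in PTH 105 bases before it and in CASR 235 bases before it, and in 9.25% of all promoters. PTH also held AGATAA, 150 bases before the start, as did 6.84% of promoters. TGTTTAC (forkhead factors of the FOXA type) and ATGCGGG (GCM factors) were in none of the 6, and in 2.26% and 1.69% of all promoters. None of the 5 strings contains another, and a match describes letters only.

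The PTH promoter was poor in G and C, at 28.0%, with only 0.253% of promoters lower, and it held 2 CpG pairs. CASR had 43.2% and 5 CpG pairs, GCM2 55.2% and 9, PSMB11 56.0% and 4, FOXN1 63.2% and 8, and AIRE 68.4% and 20. The median over all promoters was 62.4% with 17 CpG pairs, so AIRE alone of the 6 lay above the median in CpG pairs.

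The windows of 100 kb around the genes held 77 of the 129718 regions that were strict in at least 1 library, 0.0594%. Strict regions in the 6 windows numbered 29 and 43 at hESC, 44 and 34 at hDE, 45 and 33 at hAFE and 35 at hPFE, or 36 ± 9.90, 39 ± 7.07 and 39 ± 8.49 (SD, n = 2 each) in the 3 replicated stages. The total therefore did not move between stages by more than it did between replicates. Of the 77 regions 16 were strict in all 7 libraries, which is 20.8% against 11.2% of all regions in the genome, and 36 had a peak in all 7, 46.8% against 30.6%. Much of this open chromatin belonged to neighbours. A member gene was the nearest gene to 9 of the 77, and 7 lay inside the span of a member. An end of another protein-coding gene lay within 1 kb of 25 of them, against an end of a member for 5.

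The windows differed in how much open chromatin they held. That of PSMB11, a gene of 1849 bp among densely packed neighbours, had 6 and 11 strict regions at hESC, 16 and 13 at hDE, 17 and 11 at hAFE and 16 at hPFE, and its density stood at percentiles 61.5 to 99.5 of the windows of all genes. That of PTH had 3 and 5 at hESC, 2 and 3 at hDE, 1 and 2 at hAFE and 2 at hPFE, at percentiles 5.56 to 44.8. That of GCM2 had 5 and 7 at hESC, 5 and 5 at hDE, 4 and 3 at hAFE and 3 at hPFE, at percentiles 19.9 to 61.3. Both hESC libraries stood at or above every later library in the windows of GCM2, and hAFE and hPFE stood below hDE there. FOXN1 had 6 to 13, AIRE 2 to 6 and CASR 4 to 7 strict regions over the libraries, with replicates as far apart as stages. In hDE replicate 2, the deepest library and the one with the highest floor, the AIRE window held 17 peaks, against 36 to 42 in the other 6.

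**Figure D2:**
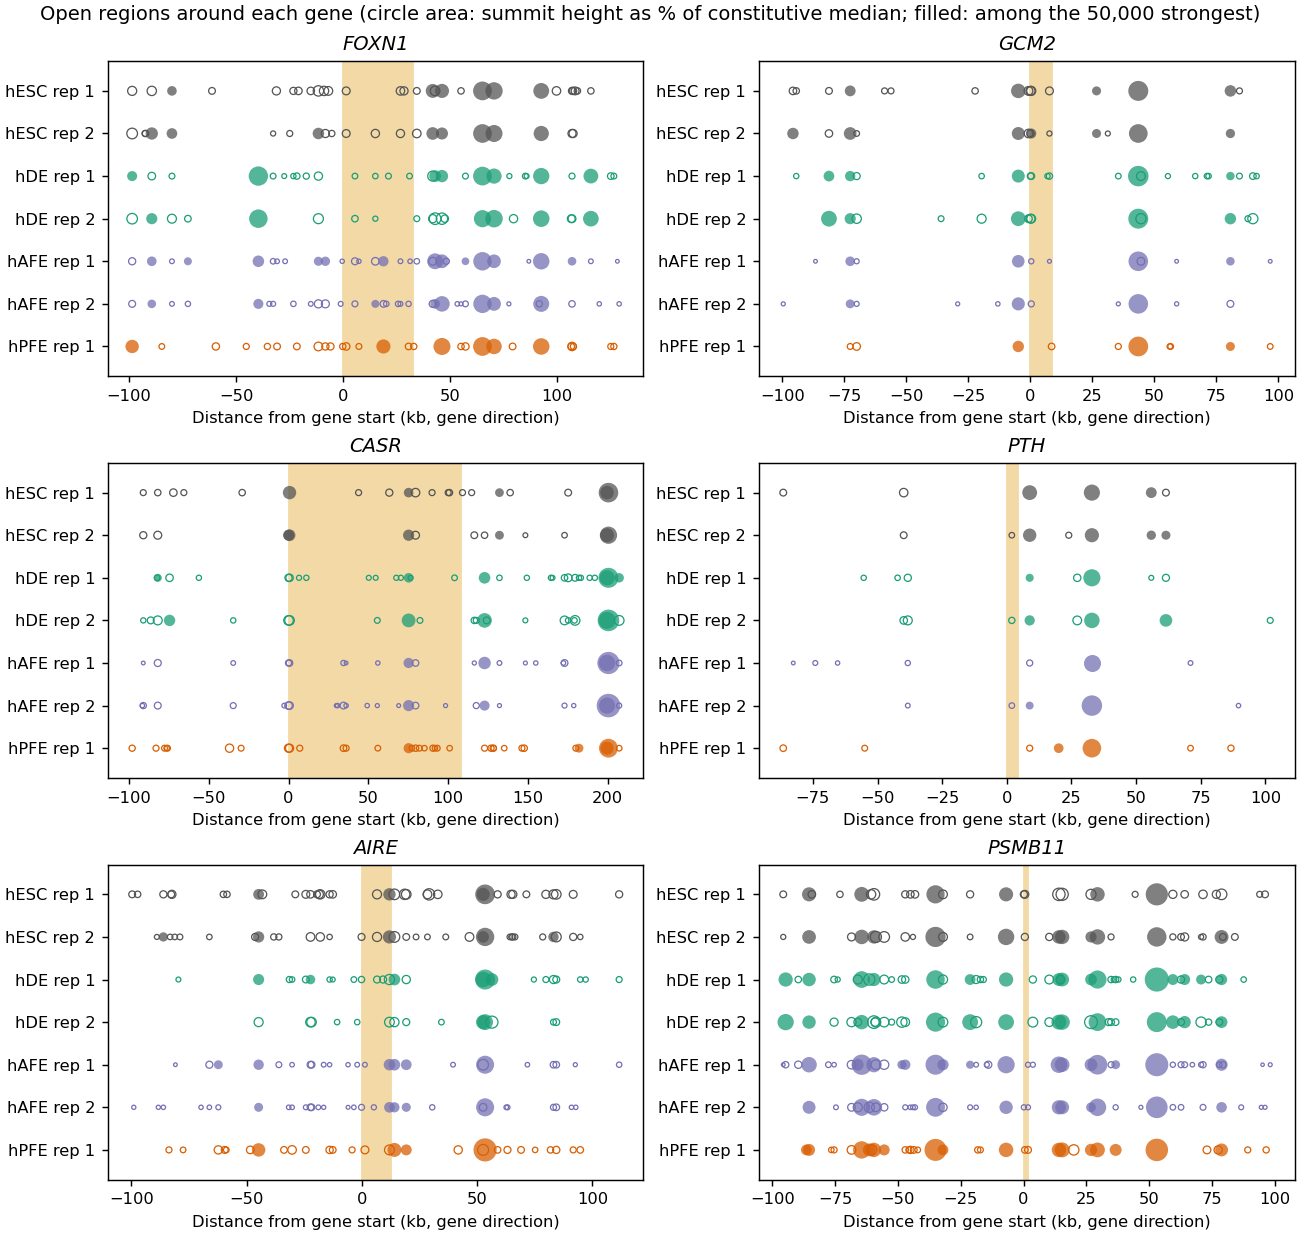
Every region of the 6 windows by its distance in kb from the gene start, in the direction of the gene (horizontal axis), with 1 line per library from hESC at the top to hPFE at the bottom; circle area is the summit height as a percentage of the constitutive median, filled circles are strict and the shaded band is the gene. Filled circles recur in all 7 libraries inside the band of CASR, 75266 bp after the start, and otherwise outside the bands, and the 1 filled circle inside FOXN1 at hPFE lies 18933 bp after the start.

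Inside the genes most regions were weak. The 6 spans held 62 regions, of which 55 were strict in no library and 37 had a peak in 1 library only. Weak regions were common in the whole windows too, where 329 of 406 were never strict and 237 had a peak in 1 library only. CASR, the longest of the genes at 107962 bp, had 35 of them, of which 27 were seen in 1 library. FOXN1, at 32553 bp, had 13, of which 6 were seen in 1 library. GCM2 and AIRE had 5 each, of which 2 each were seen in 1 library, and none of the 3 of PSMB11 or the 1 of PTH was. Peaks in the span of FOXN1 numbered 3 and 5 at hESC, 4 and 2 at hDE, 7 and 7 at hAFE and 6 at hPFE. Of the 13 regions 11 were never strict, and the share of all genes with such an order was not computed. The gene of PTH had no peak in hESC replicate 1, hDE replicate 1, hAFE replicate 1 or hPFE.

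Within FOXN1 1 named region had peaks at hAFE and hPFE only. At chr17:28524997-28525647, inside the gene and 18933 bp after its start, there was no peak at hESC or hDE, and the height was 28.4 and 7.79 times the background at hAFE and 16.6 times at hPFE. That was 40.9% and 16.9% of the constitutive median at hAFE and 77% at hPFE, and the deposited fold enrichment over the local background was 9.03 and 3.49 at hAFE and 6.86 at hPFE. It ranked 35840 and 89824 among the regions of the hAFE libraries and 17849 at hPFE, so that hPFE and 1 hAFE replicate were strict. The region was gained in hPFE against hESC, where gained means strict in every library of the later stage with no peak in any of the earlier one, and lost the reverse. Of all regions 13.4% were gained in that comparison. It was gained neither in hAFE against hDE nor in hPFE against hAFE. One of the rules that named it asks for no hESC peak, so that part of the gain was fixed by the choice.

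The other 2 regions named inside FOXN1 did not share that course. The region at chr17:28521344-28521681, 15162 bp after the start, had no peak in hESC replicate 1, 10.2 in hESC replicate 2, 3.28 and 4.16 at hDE, 15.3 and 11.4 at hAFE and no peak at hPFE. The region at chr17:28511686-28512152, 5618 bp after the start, had no peak at hESC, 3.50 and 6.55 at hDE, 12.6 and 6.23 at hAFE and no peak at hPFE, and was never strict. At both, hAFE was the last stage with a peak.

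Upstream of FOXN1 the region with the highest −log10 p of the window opened and closed again. At chr17:28466440-28467369, 39537 bp before the start and 6275 bp from SLC13A2, the nearer gene, there was no peak at hESC. Its height was 41.1 and 53.1 times the background at hDE, 35.6 and 17.9 at hAFE, and hPFE had no peak. On the scale of the constitutive median that was 144% and 131% at hDE and 51.3% and 39.0% at hAFE, with no overlap between these stages. It was gained in hDE against hESC and lost in hPFE against hAFE. A pair of other regions was lost at that last step: chr17:28416687-28417150, with 24.8 and 13.0 at hAFE, and chr17:28549180-28549896 inside UNC119, with 67.1 and 16.6 at hAFE, neither of which had a peak at hPFE. All 3 regions lost in the 6 windows in hPFE against hAFE were in the FOXN1 window. They were 16.7% of its 18 strict regions, beside 4.18% of all regions, and their absence rests on the 1 hPFE library. With 25000 strict regions per library 1 was lost in the 6 windows at that step. A further region, chr17:28426073-28426863, had 8.53 and 16.9 at hESC, 3.71 and 12.5 at hDE, 5.85 and 3.89 at hAFE and no peak at hPFE, and it was lost in hPFE against hESC.

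PSMB11 itself had only weak peaks. At chr14:23042510-23042905, 542 bp after the start, the height was 5.68 and 7.57 at hESC and 3.53 at hPFE, with none at hDE or hAFE. Across the end of the gene, at chr14:23043840-23044269, it was 6.75 and 4.41 at hAFE and 3.89 at hPFE, with none at hESC or hDE. At chr14:23042187-23042423, over the start, it was 4.74 in hESC replicate 1 and 4.67 in hAFE replicate 2. None of the 3 was strict in any library, and no strict region of the window was nearer to PSMB11 than to another gene. The strongest region of the window, inside C14orf93 at chr14:23006669-23007575, was strict throughout, at 30.8 to 106 times the background.

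The regions that changed around PSMB11 lay in its neighbours. That at chr14:22946998-22948076, at an end of HAUS4, had 22.3 and 41.3 at hDE, 10.8 in hAFE replicate 1 and none elsewhere. The region at chr14:23078535-23079028 in ACIN1 had no peak at hESC, 4.37 and 6.80 at hDE, 21.2 and 4.67 at hAFE and 11.8 at hPFE. In HAUS4, chr14:22955647-22955998 had a peak at hPFE alone, at 9.54. In AJUBA, which encodes a LIM domain protein, chr14:22980702-22980975 had 13.8 in hDE replicate 1, 18.4 in hAFE replicate 2 and 13.6 at hPFE. The last 3 were gained in hPFE against hESC, 12.5% of the 24 strict regions of the window, beside 13.4% of all regions.

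AIRE had no gained or lost region in any comparison. Inside the gene near its end, at chr21:44297657-44297966, all 7 libraries had a peak, of 14.2 and 26.0 at hESC, 11.4 and 14.7 at hDE, 35.1 and 19.99 at hAFE and 7.95 at hPFE. It was strict at hESC and hAFE and in neither hDE nor hPFE, at 58.8% and 67.0% of the constitutive median at hESC, 39.7% and 36.3% at hDE, 50.6% and 43.5% at hAFE and 36.9% at hPFE. Just past the end, at the start of PFKL (a phosphofructokinase gene), chr21:44299462-44300976 had 10.4 and 17.1 at hESC, 15.1 and 13.2 at hDE, 36.0 and 18.4 at hAFE and 16.2 at hPFE. A weak region in the middle of AIRE, chr21:44292236-44292593, had 7.58 and 12.3 at hESC, 5.24 in hDE replicate 1 and no peak in the other 4. The strongest hPFE region without an hESC peak, chr21:44223300-44223734 in ICOSLG, had 21.2 and 4.41 at hAFE and 5.65 at hPFE. The strongest region of the window, at an end of CFAP410, was strict throughout, at 36.0 to 86.4.

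At GCM2 every named peak in or near the 5′ part of the gene was gone by hPFE. The strongest, chr6:10881563-10881856, 319 bp after the start, had 7.58 and 15.1 at hESC, 5.02 and 12.1 at hDE, 7.20 and 6.49 at hAFE and none at hPFE. In percent of the constitutive median these were 31.4 and 39.1 at hESC, 17.6 and 29.8 at hDE, and 10.4 and 14.1 at hAFE, so that the 3 stages did not overlap. Over the start itself, chr6:10881914-10882112 was a separate region at 8.01 in hESC replicate 2 and 4.59 in hDE replicate 1. In hESC replicate 1 and hDE replicate 2 it was merged with the one before, and no peak lay there later. Upstream, chr6:10882680-10883109 had 7.10 and 10.8 at hESC, 9.07 in hDE replicate 2 and none later. In hPFE 1 peak lay in the gene, at its far end (chr6:10873395-10873590), with a height of 3.53, and no other library had it.

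Regions farther from GCM2 were lost as well. The region at chr6:10855251-10855663, past the end of the gene, had 7.58 and 12.1 at hESC, where it was strict, and no peak afterwards, and it was lost at hDE and in hPFE against hESC. The region at chr6:10962772-10963637, inside SYCP2L, had 4.26 and 8.22 at hESC, 12.7 and 38.7 at hDE and no peak at hAFE or hPFE, and it was lost in hAFE against hDE. No region of the GCM2 window was gained in any of the 4 comparisons. The strongest, at an end of MAK, was strict throughout, at 32.3 to 102 times the background.

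CASR had a lasting open region inside the gene. At chr3:122258575-122259114, 75266 bp after the start, the height was 8.53 and 18.8 at hESC, 10.0 and 29.6 at hDE, 27.9 and 22.1 at hAFE and 8.48 at hPFE, and it was strict in all 7 libraries. In percent of the constitutive median it was 35.3 and 48.6 at hESC, 35.1 and 73.0 at hDE, 40.3 and 48.0 at hAFE and 39.3 at hPFE, with overlap between all stages. Around the start, chr3:122183881-122185017 is the start peak given above. A second region, chr3:122183550-122183813, had no peak in hESC replicate 1, and was separate from the first at 18.0 in hESC replicate 2, 5.68 in hDE replicate 1 and 9.90 in hAFE replicate 1. In hDE replicate 2, hAFE replicate 2 and hPFE 1 merged region covered both. Between the lasting region and the neighbouring genes, chr3:122315099-122316187 was strict at hESC at 7.10 and 11.7, and had no peak at hPFE. In MIX23 the region chr3:122365478-122365832 had 3.06 in hDE replicate 1 and 6.54 at hPFE, and it was gained in hPFE against hAFE and against hESC. The strongest region of the window, between the ends of FAM162A and MIX23, was strict throughout, at 29.3 to 131.

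A region beyond the end of CASR was open mainly in the middle stages. It was singled out after its values were seen, as 1 of the 9 strict regions nearest to a member gene. At chr3:122305465-122306770, 13836 bp past the end, hESC replicate 1 had no peak and replicate 2 a height of 6.06. The height was 14.9 and 33.3 at hDE, 41.4 and 17.9 at hAFE and 3.00 at hPFE. Each hDE and hAFE library lay above the hPFE and hESC libraries.

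PTH, the hormone gene, had 1 weak region inside it, chr11:13494087-13494536, with 4.54 in hESC replicate 2, 6.05 in hDE replicate 2, 5.45 in hAFE replicate 2 and none elsewhere. The nearest strong region, chosen likewise after its values were seen, was chr11:13487168-13488121, 3933 bp past the end. Its height was 20.4 and 26.6 at hESC, 7.21 and 16.4 at hDE, 9.90 and 11.2 at hAFE and 3.00 at hPFE. In percent of the constitutive median it was 84.3 and 68.7 at hESC, 25.2 and 40.4 at hDE, 14.3 and 24.3 at hAFE and 13.9 at hPFE, so that both hESC libraries lay above all others on either scale. Farther off, in BTBD10, chr11:13439896-13440491 had 10.9 and 13.0 at hESC, 2.62 in hDE replicate 1 and none later. Opposite to these, chr11:13475834-13476373 had a peak at hPFE alone, at 7.77, and was gained in hPFE against hAFE and against hESC. The strongest region of the window, at an end of BTBD10, was strict throughout, at 24.2 to 77.

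**Figure D3:**
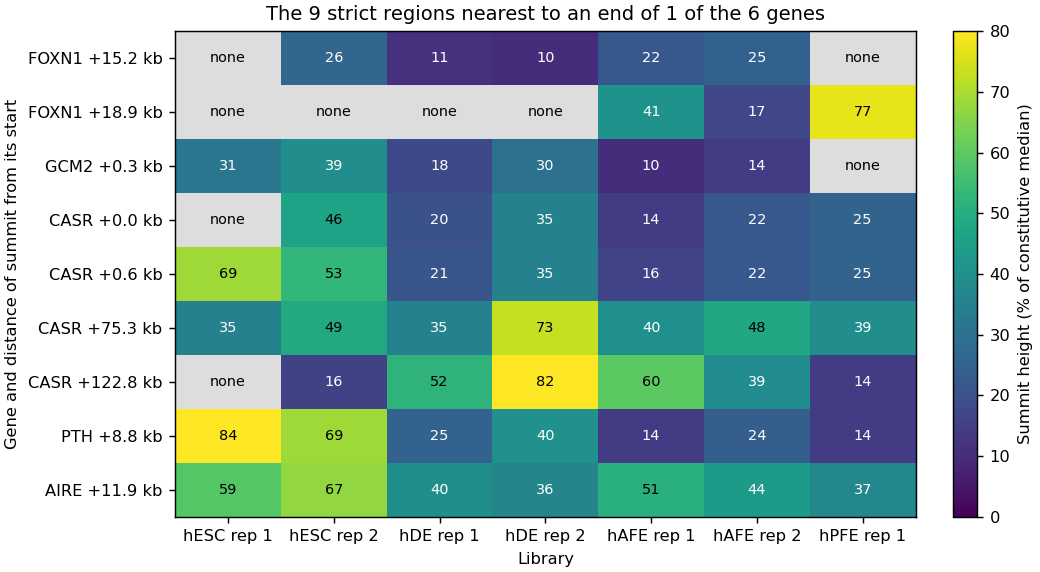
Summit height, as a percentage of the constitutive median of the library, of the 9 strict regions for which a member gene is the nearest gene; rows are the gene and the distance of the summit after its start in kb, columns are the 7 libraries in stage order (the first 2 CASR rows share 1 merged region in hDE replicate 2, hAFE replicate 2 and hPFE), and grey cells marked none have no deposited peak. The FOXN1 row at 18.9 kb has none at hESC and hDE and 77% at hPFE, and the PTH row has 84.3% and 68.7% at hESC and 13.9% at hPFE.

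Summed over all regions within 10 kb of a gene, the 2 transcription factors took different courses. The summed height around GCM2 was 180% and 162% of the constitutive median at hESC, 124% and 135% at hDE, 77.3% and 80.2% at hAFE and 66.4% at hPFE, so every library of a later stage lay below every library of an earlier one. Of all 19970 genes 0.461% had this order and 0.11% the opposite one. Much of this sum came from the start of the neighbouring gene SYCP2L, strict in all 7 libraries (chr6:10886613-10887814), with 61.0% and 66.1% at hAFE and 50% at hPFE. Counting only regions nearest to an end of GCM2, chosen after the values were seen, the sum was 100% and 97.8% at hESC, 59.5% and 52.2% at hDE, 16.2% and 14.1% at hAFE and 16.4% at hPFE. The first 3 stages then kept their order without overlap, and hPFE lay no lower than hAFE on this scale. As plain multiples of the background the GCM2 peak at hPFE was 3.53, and the strongest of the gene at hAFE were 7.20 and 6.49. Around FOXN1 the summed height was 267% and 205% at hESC, 87.0% and 65.8% at hDE, 181% and 150.3% at hAFE and 216% at hPFE, with both hDE libraries below all others, as at 5.41% of genes. From regions nearest to an end of FOXN1 alone it was 94.1% and 103% at hESC, 48.9% and 39.8% at hDE, 123% and 107% at hAFE and 176% at hPFE, where hDE was again lowest. That hPFE was highest there rests on the scaling, since its constitutive median was 21.5 times the background, against 69.3 and 45.9 at hAFE. The median over all genes was 271% and 231% at hESC, 224% and 208% at hDE, 204% and 192% at hAFE and 237% at hPFE. The order of the full sum at GCM2, neighbour included, rests on the scaling as well: as plain multiples of the background the sums were 43.6 and 62.8 at hESC, 35.6 and 54.8 at hDE, 53.6 and 36.9 at hAFE and 14.3 at hPFE, which leaves hPFE below the other 6 and the earlier stages overlapping. The low hDE values at FOXN1 held on that scale, with 64.4 and 79.4 at hESC, 24.9 and 26.7 at hDE, 126 and 69.0 at hAFE and 46.5 at hPFE. There hPFE lay below both hESC and both hAFE libraries.

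PTH went the way of GCM2 at its extremes. Its sum was 114% and 117% at hESC, 38.9% and 55.3% at hDE, 22.7% and 48.0% at hAFE and 13.9% at hPFE, with overlap between hAFE (35.4 ± 17.9) and hDE (47.1 ± 11.6, SD, n = 2 each). Both hESC libraries lay above the 5 others, as at 19.1% of genes, and hPFE lay below the 6 others, as at 10.6%. Both held without the scaling (27.5 and 45.4 at hESC, 11.1 to 22.4 over hDE and hAFE, and 3.00 at hPFE). Within 20 kb, which takes in the region open at hPFE, PTH was no longer lowest there. CASR had 251% and 189% at hESC, 156% and 163% at hDE, 116% and 173% at hAFE and 225% at hPFE. AIRE had 286% and 211% at hESC, 207% and 98.8% at hDE, a mean of 186% at hAFE and 196% at hPFE. PSMB11 had 119.6% and 143% at hESC, 127% and 161% at hDE, 133% and 88.1% at hAFE and 115% at hPFE. At CASR, AIRE and PSMB11 the hPFE value lay within the range of the other 6 libraries, and AIRE stood highest in both hESC libraries. Without the scaling the AIRE order did not hold, and PSMB11 was lowest at hPFE, with 24.7 against 28.9 to 92.3 in the other 6. From regions nearest to an end of AIRE alone the order did not hold either, with 90.2% and 117% at hESC and 105% in hDE replicate 1. Such regions of PSMB11 gave 43.1% and 19.6% at hESC, 0 at hDE, 9.74% and 19.8% at hAFE and 34.4% at hPFE. Most of the PSMB11 sum thus came from regions of its neighbours.

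**Figure D4:**
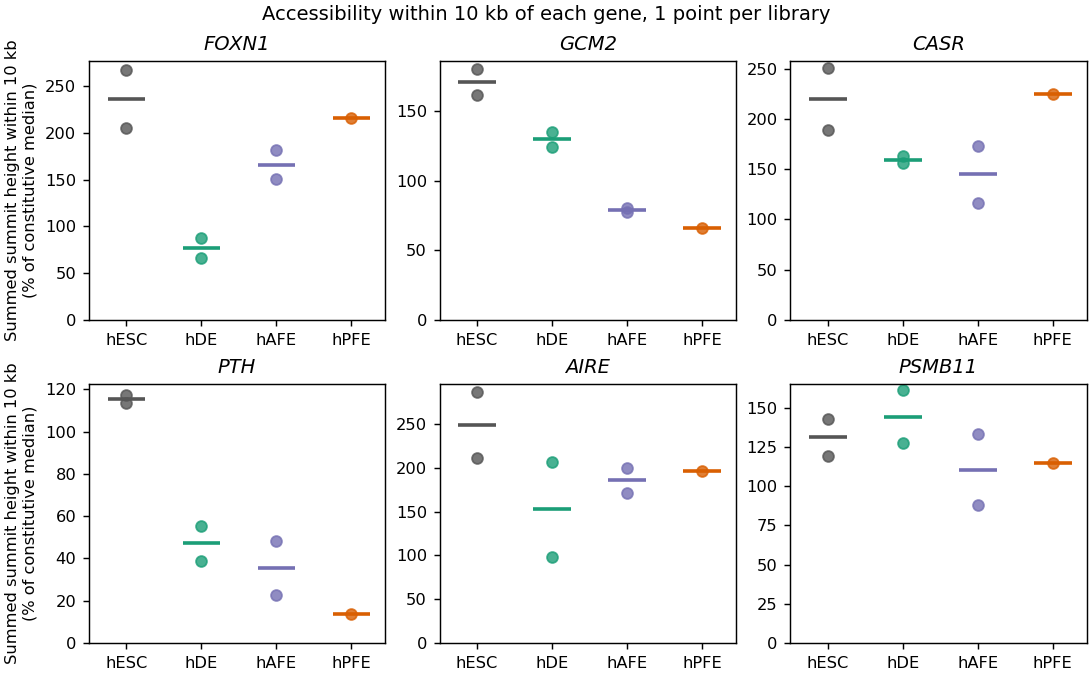
Summed summit height of all regions within 10 kb of each gene, as a percentage of the constitutive median (vertical axis, from 0), by stage; points are libraries and bars are stage means. The sums include neighbouring genes' regions; GCM2 has means of 171% at hESC, 130% at hDE and 78.7% at hAFE and a value of 66.4% at hPFE, PTH has 13.9% in hPFE against 116% at hESC, and FOXN1 is lowest at hDE at 76.4%.

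Counted over the 77 regions, few were gained or lost in any comparison. In hDE against hESC 2 were gained (2.60% of the 77) and 1 lost (1.30%), where 5.43% and 1.15% of all regions were. In hAFE against hDE none was gained and 1 lost (1.30%), against 2.05% and 3.2% of all regions. In hPFE against hAFE 3 were gained and 3 lost (3.90% each), against 8.45% and 4.18%. In hPFE against hESC 6 were gained (7.79%) and 5 lost (6.49%), against 13.4% and 6.62%. Both libraries had to agree at hESC, hDE and hAFE, but only 1 exists at hPFE. Comparisons with hPFE thus had a looser rule, and their counts cannot be ranked against those of the other steps. The shares gained in the windows were below those over all regions in these 4 comparisons, at 0 to 6 regions each. In hDE against hESC that direction turned with the definition: with 25000 strict regions per library 4.88% were gained in the windows against 3.81% of all regions, and with 100000 it was 9.77% against 6.47%. Those gained in hPFE against hESC were 3 at PSMB11 and 1 each at FOXN1, CASR and PTH, and those lost were 2 at FOXN1 and 1 each at GCM2, CASR and PTH.

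**Figure D5:**
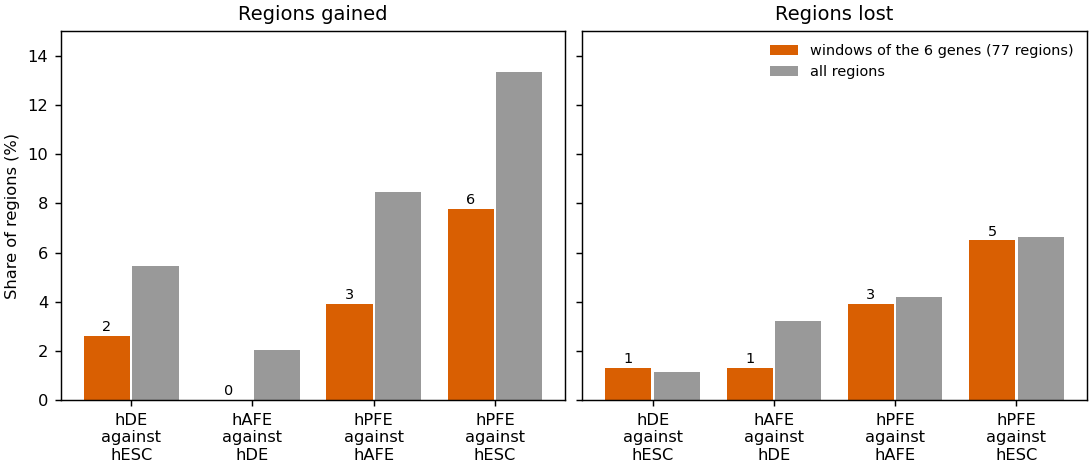
Share of regions gained (left) and lost (right) in each comparison of stages, in percent from 0, for the 77 regions in the windows of the 6 genes (coloured, with the number of regions above the bar) and for all 129718 regions (grey). The coloured bar for gained regions is below the grey one in each comparison, for example 7.79% against 13.4% in hPFE against hESC.

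The changes between stages were set against those between replicates. Between replicates 0 or 1 region of the windows was strict in 1 library and absent from the other. Between single libraries 6 or 7 were strict at hPFE and absent from hESC, and 5 to 11 the reverse. Over all 129718 regions there were 61 to 2137 between replicates. For hPFE and hESC there were 20532 and 19585 over all regions, and 15906 and 15871 the reverse. The excess over replicates was thus seen over the whole genome and is not particular to these windows. Between hPFE and hAFE 3 or 4 were strict at hPFE and absent from hAFE, and 4 to 7 the reverse. Over all regions these were 13806 and 13217, and 11271 and 10021 the reverse. In hAFE against hDE the window counts were 0 to 4, with the reverse 2 to 6, so that the first of these overlapped the spread between replicates. In hDE against hESC they were 4 to 6, with the reverse 1 to 5, which overlapped it too. With 2 libraries against 2 the smallest two-sided p of an exact permutation test is 0.333, so that test was not used, and no other was run. The hPFE stage has no replicate. Several of the counts rose when 1 library was left out, which removes a condition and so can only keep or raise a count. Regions lost in hPFE against hESC numbered 11 without hESC replicate 1, and those lost in hPFE against hAFE 7 without hAFE replicate 2. Those gained in hAFE against hDE numbered 3 without hAFE replicate 2. In hDE against hESC 4 were gained without hDE replicate 2, and 3 lost without hDE replicate 1 or without hESC replicate 1. In hAFE against hDE 4 were lost without hAFE replicate 1, 3 without hDE replicate 1 and 2 without hDE replicate 2.

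Other genes of the 2 lineages were counted in lists that hold none of the 6. Of 24 genes of thymic epithelium, 14 and 15 had a strict region within 1 kb of an end at hESC, 13 and 7 at hDE, 11 and 12 at hAFE and 11 at hPFE. Of 18 parathyroid genes, 12 and 12 had one at hESC, 10 and 11 at hDE, 13 and 10 at hAFE and 11 at hPFE. Of all genes 60.7% and 59.4% had one at hESC, 60% and 50.3% at hDE, 59% and 60.4% at hAFE and 59% at hPFE. CCL21, a chemokine gene, stands in both lists, and none of these counts was tested.

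Regions were assigned to the nearest gene end within 100 kb, so a gene far from others can gather more. The genes named for gains and losses were drawn from those with the most such regions. Counts of regions in the lists are given without a share over all regions. In hPFE against hESC the thymic list had 23 regions gained and 8 lost. Gained regions lay at 10 of its 24 genes, beside 29.3% of all genes, and lost ones at 6, beside 20.3%. PAX9, which encodes a pouch transcription factor, and TP63, a transcription factor gene of stratified and thymic epithelium, had 4 gained regions each, and FGFR2 had 3. KITLG, which encodes a growth factor for progenitor cells, had 3 lost. In hPFE against hAFE the list had 14 gained and 5 lost, at 7 and 5 genes, beside 21.6% and 13.6% of all genes. TP63 had 4 gained regions and 1 lost at that step, the growth factor gene BMP4 had 2 gained and 1 lost, and the receptor gene FGFR2 had 2 gained. In hDE against hESC the list had 7 gained regions at 4 genes and 1 lost at 1 gene, beside 15.1% and 4.37% of all genes. In hAFE against hDE it had 4 gained at 3 genes and 3 lost at 2, beside 7.61% and 9.57%. PAX9 had 3 gained regions in hDE against hESC and 2 lost in hAFE against hDE. Its strict regions numbered 9 and 9 at hDE, 3 and 5 at hAFE and 9 at hPFE.

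The parathyroid list had 13 regions gained and 9 lost in hPFE against hESC, at 9 and 6 of its 18 genes, beside 29.3% and 20.3% of all genes. GATA3, a transcription factor required for the parathyroid gland, had 3 gained there, 3 gained and 1 lost in hAFE against hDE, 2 lost in hPFE against hAFE and 1 lost in hDE against hESC. EYA1, a transcriptional coactivator of pouch development, had 4 lost in hPFE against hAFE, where the list had 9 gained at 7 genes and 10 lost at 6, beside 21.6% and 13.6%. In hDE against hESC the list had 4 gained at 4 genes and 3 lost at 3, beside 15.1% and 4.37%. In hAFE against hDE it had 6 gained and 4 lost, at 4 genes each, beside 7.61% and 9.57%.

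At FOXN1 the limit of 100 kb fell between a pair of close regions. The outermost strict region inside the limit lay 98549 bp from the gene, at 14.8 times the background and rank 26591 at hPFE. The next one outside lay 100049 bp away, at 18.2 times and rank 18326 at hPFE. At PTH the outermost inside lay 57417 bp away and the next, at 44.7 times the background, 110682 bp away. At PSMB11 they lay 94662 and 101129 bp away.

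The genes whose summed height within 10 kb ran most like that of a member over the 7 libraries were PLEKHG4B (Pearson r = 0.996) and LOC124900629 (0.995) for FOXN1, and DEFB130A (0.999) and BCL11B (0.995) for GCM2. For CASR they were ZNF682 (0.992) and RFX8 (0.988), for PTH C7orf33 (0.99) and ATOH1 (0.987), for AIRE KCTD13 (0.995) and PLEKHJ1 (0.994), and for PSMB11 SAMD8 (0.996) and USP47 (0.995). Each r is over the 7 libraries, on log2(1 + the summed multiple of the background), where all genes of a library share its depth and peak limit. The 2 named are the highest of 19970 genes, so r is a description only.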

How the data were processed

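ATAC-seq peak lists of 7 libraries, 1 list each and none pooled, were analysed. Per the submitters' processing notes the build was hg38 and DiffBind was used. The aligner and the peak caller were not given in the sources used here. Each deposited peak carries the authors' fold enrichment (a ratio over local background), −log10 p and −log10 q, a summit offset and a display score, and the score was not used. The deposited file names record a p limit of 0.01 and a limit of 300000 peaks.

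From fold and −log10 p the whole-number summit pileup and its background were recovered (100% of peaks within 0.001 of −log10 p, checked on simulated data). The genome-wide background is the most frequent value among the weaker peaks. Overlapping peaks (1 bp) were merged on chromosomes 1 to 22 and X, and the top 50,000 by −log10 p were called strict. Depth is known only through that background.

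Groups came from the sample titles. Gene spans and starts are RefSeq's (GRCh38.p14), and exons, introns and untranslated regions were not told apart. The regions named are, per gene, up to 3 strongest in the gene or within 1 kb of an end, the strongest of the window (by −log10 p in any library), up to 4 gained or lost, and the strongest hPFE region without an hESC peak. The members and lists were chosen with earlier results of these data known. No test was run: an exact test of 2 libraries against 2 cannot pass 0.05, and counts and levels are described. Python 3.11.15, pandas 2.3.3, numpy 2.4.6 and scipy 1.17.1 were used. Alternatives were the number of strict regions, a height limit, the window, the overlap, the distance from an end, the scaling and leaving out each replicate.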

Additional observations from a re-analysis of the deposited data

How the results depend on the processing

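No paired analysis was possible because every result is a count or a level given without a test. The counts of gained and lost regions depended on how strict was defined, and the cause was not tested. With 25000 strict regions per library, the window counts of lost regions in hDE against hESC and of gained regions in hPFE against hAFE were 0, lost regions in hPFE against hAFE were 1, and in hPFE against hESC 2 were gained and 0 lost. With 100000 the numbers gained and lost were 13 and 4 in hDE against hESC, 3 and 7 in hAFE against hDE, 8 and 11 in hPFE against hAFE, and 13 and 11 in hPFE against hESC. With a height limit of 10 times the background, 0 were lost in hDE against hESC, 1 was gained and 2 lost in hAFE against hDE, 0 gained and 6 lost in hPFE against hAFE, and 3 gained and 2 lost in hPFE against hESC. A limit at 25% of the constitutive median, chosen after seeing the data, gave 5 and 2 in hDE against hESC, 3 lost in hAFE against hDE, 8 and 5 in hPFE against hAFE, and 13 and 11 in hPFE against hESC. Windows of 50 kb gave 1 gained in hDE against hESC, 0 lost in hAFE against hDE, 1 gained in hPFE against hAFE, and 3 gained and 3 lost in hPFE against hESC. Windows of 200 kb gave 6 and 2 in hDE against hESC, 3 lost in hAFE against hDE, 8 gained in hPFE against hAFE, and 12 and 10 in hPFE against hESC. Merging by a longer overlap left all 8 counts as they were.

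Leaving out 1 replicate at a time gave 3 to 4 gained and 1 to 3 lost in hDE against hESC, 0 to 3 gained and 1 to 4 lost in hAFE against hDE, 3 to 4 gained and 4 to 7 lost in hPFE against hAFE, and 6 to 7 gained and 5 to 11 lost in hPFE against hESC. Such a count can only stay or rise, since a region then has fewer conditions to meet. A peak within 1 kb of either end was present in every library of the stage at 4 of the 6 genes at hESC, 3 at hDE, 4 at hAFE and 5 at hPFE. Within 0.5 kb it was 2 at hESC, within 2 kb it was 5 at hDE, and with strict regions only it was 2 at hESC, 0 at hDE, 1 at hAFE and 0 at hPFE. Leaving out 1 replicate, it was 4 at hESC, 3 at hDE and 4 to 5 at hAFE. The counts in the windows and at the gene ends stayed within 1.5 times in 45 of 98 alternatives. The order of stages at FOXN1 (hDE lowest) held within 5 kb, 10 kb and 20 kb and without the scaling. These checks of the order, the sums from a gene's own regions and the gene-end counts without a replicate were added after seeing the data. The lowest deposited peak stood at 2.47 to 3.78 times the genome-wide background, which is not a limit that holds at each place. The −log10 p depends on the local background: in hESC replicate 1 a height of 8.53 at chr17:28549180-28549896 had a −log10 p of 3.88. Where no peak is given, the height may therefore have been above that lowest value.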
